A study of Saccharomyces cerevisiae with 12 samples.

Results

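Decapping removes the 5′ cap of an mRNA and opens it to the cytoplasmic exonuclease Xrn1. Dcp2 is the catalytic subunit, a Nudix hydrolase, and Dcp1 is its partner. Edc1, Edc2 and Edc3 enhance the reaction, while the helicase Dhh1, Pat1 and the ring that contains Lsm1 bind mRNAs, repress their translation and recruit the enzyme. Dcs1 and Dcs2 act later: Dcs1 is a scavenger enzyme that hydrolyses the cap left at the end of decay, and Dcs2 is its paralog and modulator, known as a stress-induced gene. The genes of these 10 proteins were taken by their identifiers from a table of 10891 features, and all 10 were found.

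The table comes from total RNA depleted of ribosomal RNA, from Saccharomyces cerevisiae BY4741 in mid-log growth, at 30°C in YPD and an OD600 of 0.5. The wild type (WT) is MATa his3Δ1 leu2Δ0 met15Δ0 ura3Δ0. The 5 deletion strains carry these 4 auxotrophic alleles too, with ura3 written as ura3Δ, and each has 1 helicase gene replaced by kanMX4: ecm32, slh1, ski2, dbp1 or dhh1. Each strain has 2 biological replicates, 12 libraries in all, of 8.79 to 17.66 M reads. The labels do not say whether replicates are separate clones.

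The values are normalized densities, reads per nucleotide of the feature divided by a library factor. They can be compared between libraries as far as the factor allows, and between genes with a limit. The counted length, as recovered from the values, goes beyond the open reading frame by 0 bases for EDC2, 441 for LSM1 and 888 for DHH1. What this does to the order of the genes was not tested. The cells looked like MATa cells: in WT the a-specific genes MFA1, MFA2, STE2 and BAR1 had densities of 2.61, 9.73, 3.92 and 2.15, against 0.00491, 0.00894 and 0.0125 for the alpha-specific MF(ALPHA)1, MF(ALPHA)2 and STE3. The ski2-delta and dbp1-delta labels did not match their target genes. SKI2 density was 146% of WT under the first label and 0.11% under the second, and DBP1 density was 3.68% and 150%. Both sets of libraries are named below as labelled, and no direction is ascribed to either deletion. ECM32 stood at 0.319% and SLH1 at 0.0283% of WT in the strains named for them. Spike-in RNA took 1.22% of reads in the first WT library and 1.72 to 2.69% in the other 11.

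The coding sequence shows what makes these proteins enzymes. The stretch below of DHH1 (YDL160C), on chromosome IV at 170410 to 171930 on the minus strand, holds in capitals the 4 codons of the DEAD box that names this helicase family. That of DCP2 (YNL118C), on chromosome XIV at 402652 to 405564 on the minus strand, holds in capitals the codons of the invariant glycines, glutamates and arginine of the Nudix box. Both are exonic and are read 5′ to 3′ from the RefSeq R64 genome, chrIV:171307-171378 and chrXIV:405097-405165.
DHH1: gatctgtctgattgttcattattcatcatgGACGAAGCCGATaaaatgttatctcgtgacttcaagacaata
DCP2: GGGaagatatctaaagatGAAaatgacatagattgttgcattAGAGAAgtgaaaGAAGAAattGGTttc

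In WT density was highest for DHH1 and lowest for DCS2. DHH1 had 1.09 ± 0.0834 (SD, n = 2) and LSM1 0.995 ± 0.0444, and these were higher than 84.5% and 83% of 5916 protein-coding genes. PAT1 followed with 0.814 ± 0.161 and EDC2 with 0.577 ± 0.119. The 2 subunits of the enzyme were close, DCP1 at 0.446 ± 0.0238 and DCP2 at 0.412 ± 0.00616, and EDC3 was at 0.388 ± 0.0182. DCS1 had 0.317 ± 0.0638, EDC1 0.149 ± 0.0629 and DCS2 0.0465 ± 0.00138, the last higher than 13.2% of coding genes. In this order the libraries of DHH1 and LSM1 overlapped, and those of every other pair of neighbours did not, although DCP1, DCP2 and EDC3 lay near each other and 2 libraries give little information on spread. In dhh1-delta the order differed: PAT1 (1.55), EDC1 (1.37) and EDC2 (1.3) came first, with overlapping neighbours, then LSM1, DCS1, DCP1, EDC3, DCP2, DCS2 and DHH1.

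**Figure D1:**
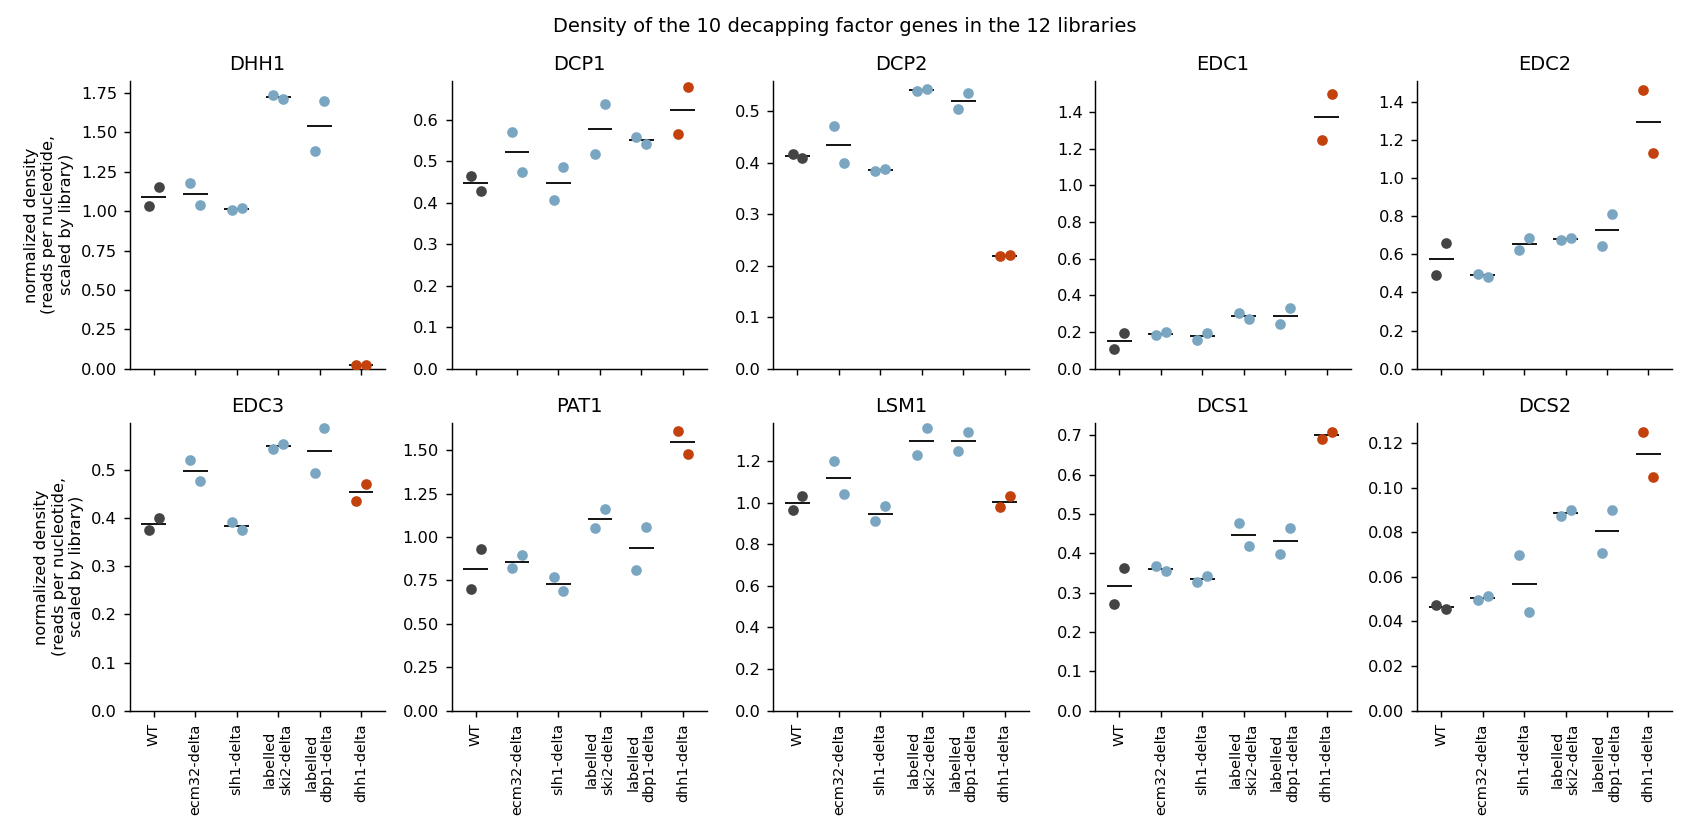
Normalized density (reads per nucleotide, scaled by library, linear axis from 0) of each gene in the 12 libraries; points are libraries and bars strain means. In dhh1-delta (red) DCP2 lies below and EDC1, EDC2, PAT1, DCS1 and DCS2 lie above all other 10 libraries. Of all features 33.5% lie below and 8.43% above.

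Loss of DHH1 went with a lower level of DCP2 mRNA and higher levels of several activators. Against WT, limma-trend called 6 of the 10 genes higher and 2 lower, 1 of these being DHH1 itself. The share called among all 9497 features tested was 13.7% higher and 24.3% lower, 37.9% in either direction. Of these features 5650 are protein-coding genes, as the 10 genes are, and the others include non-coding RNAs. Shares and medians for coding genes alone are not given here. The median log2 fold change of the 10 genes was 0.70, against -0.20 for all features. With size factors from protein-coding genes 7 were called higher and 2 lower, where 18.3% and 28.9% of all features were. With factors from spike-ins 3 were called, DHH1 and DCP2 lower and EDC1 higher, where 16.6% of all features were called. When the first WT library was left out as well, 7 were called higher and only DHH1 lower, where 26.9% of all features were called. DCP2 was then not called, and EDC3 was. In bulk RNA of a culture, fewer cells with a transcript and less of it in each cell cannot be told apart.

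DHH1 was the check of the label. Its densities were 1.03 and 1.15 in WT and 0.0228 and 0.0244 in dhh1-delta, with 73 and 77 reads left, so it stood at 2.17% of WT. The log2 fold change was -5.25 (SE 0.12, adjusted p = 2.17e-10, n = 2 against 2), and it depends on the pseudocount, running from -5.52 to -3.93 over the alternatives. The counted feature is 2409 nucleotides long, 888 more than the open reading frame of 1521. Whether the reads that were left lie outside the frame was not tested, as the table gives 1 value per feature. Of its neighbours, MHF2, ENT1 and STE7 had log2 fold changes of 0.44, 0.28 and -0.07 and did not pass (adjusted p = 0.0692, 0.183 and 0.705). The short frame YDL159W-A, which lies divergently beside DHH1, had 15 reads in the 2 dhh1-delta libraries and 0 in each of the other 10. Its density in dhh1-delta was 0.043 ± 0.00352 (SD, n = 2).

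DCP2, the catalytic subunit, fell in dhh1-delta. Its densities were 0.416 and 0.408 in WT and 0.218 and 0.22 in dhh1-delta, and between 0.384 and 0.542 in the 8 libraries of the other deletion strains. Both dhh1-delta libraries were below all other 10, as they were for 33.5% of all features. The change was -0.90 on the log2 scale (SE 0.11, adjusted p = 8.13e-05), 53.1% of the WT mean. It passed in 13 of 14 alternatives, at -1.12 to -0.48, and in the 4 of these that leave out 1 library it was -0.91 to -0.88. The call was lost with spike-in factors and the first WT library left out, at -0.48 (adjusted p = 0.0739). Against the mean of the other 4 deletion strains, which uses no WT library, it was -1.07 (SE 0.08, adjusted p = 2.47e-06). The median of all features was -0.36 there, and DCP2 ran from -1.1 to -0.82 over the alternatives.

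DCP1, the partner of Dcp2, moved the other way. Its densities were 0.463 and 0.429 in WT and 0.566 and 0.679 in dhh1-delta, and the other strains reached 0.637, so the groups overlap once all strains are taken. The log2 fold change against WT was 0.47 (SE 0.15, adjusted p = 0.0247). It passed in 2 of the 4 fits without 1 library, where adjusted p reached 0.19. Against the other 4 deletion strains it was 0.25 (SE 0.12, adjusted p = 0.0805) and did not pass, while with protein-coding factors it was 0.48 and passed (adjusted p = 0.00428).

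The ratio of DCP2 to DCP1 within a library does not depend on any library factor. It was 0.9 and 0.95 in WT, 0.796 to 1.05 over all 10 libraries with DHH1 (median 0.902), and 0.324 and 0.386 in dhh1-delta. The 2 dhh1-delta libraries thus had 0.392 times the ratio of the others, a log2 difference of -1.35 (exact permutation test, two-sided, p = 0.0303, adjusted over 6 ratios 0.0455). This p is the smallest that 2 libraries against 10 can give, and with 2 against 2 the smallest is 0.333. It counts 5 strains as 1 group and the libraries of a strain as separate units. Any ratio without overlap gets it, and the same limits hold for EDC2/EDC1, PAT1/LSM1 and RPS28B/RPS28A below. Both dhh1-delta libraries lay above all other 10 for 8.43% of all features and below them for 33.5%, so 1 gene can part a ratio. Without the first WT library the log2 difference was again -1.35, with adjusted p = 0.0545, since 9 libraries allow no smaller value.

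The enhancers of decapping did not move together. EDC1 (YGL222C, chromosome VII, 80659 to 81186), which encodes a small protein that activates Dcp2, rose most of the 10. Its densities were 0.105 and 0.194 in WT, 0.155 to 0.333 in the other deletion strains, and 1.25 and 1.5 in dhh1-delta, with 952 and 1124 reads there against 48 and 122 in WT. The WT libraries differ by nearly as much as some strains do, yet both dhh1-delta libraries were far above all 10, as was so for 8.43% of all features. The log2 fold change was 3.21 (SE 0.24, adjusted p = 3.08e-06), 9.28-fold, and 2.79 to 3.64 in the 4 fits without 1 library. Against the other 4 deletion strains it was 2.56 (SE 0.19, adjusted p = 1.81e-06).

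EDC2 (YER035W, chromosome V, 222639 to 223076), the paralog of EDC1, rose less. It had densities of 0.492 and 0.661 in WT, 0.483 to 0.809 in the other deletion strains, and 1.46 and 1.13 in dhh1-delta. Here too the dhh1-delta libraries were above all 10, as for 8.43% of all features. The log2 fold change was 1.17 (SE 0.16, adjusted p = 0.000264), 2.24-fold. EDC2 was 4.69 and 3.41 times as dense as EDC1 in the WT libraries and 1.17 and 0.755 times in dhh1-delta. The ratio differed by -1.66 on the log2 scale from that of the other 10 libraries, where it was 2.22 to 4.69 (exact permutation test, two-sided, p = 0.0303, adjusted 0.0455). Without the first WT library this was -1.59 (adjusted p = 0.0545). Coding sequences of the pair are 58.4% identical over 428 aligned bases and share no identical stretch longer than 10 bases.

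The 2 paralogs also differ after the stop codon. EDC1 mRNA is known for decapping that does not wait for deadenylation and for a run of uridines in its 3′ untranslated region. In the RefSeq R64 genome the longest run of T in the 300 bases after the EDC1 stop codon has 31 bases and begins 25 bases after it. Of 6002 protein-coding genes, 6 (0.1%), EDC1 included, have a run as long in that window. EDC2 has one of 11 bases, beginning 51 bases after the stop, and 7.95% of genes have a run at least as long. The 30 bases shown begin 5 bases before the run, which is in capitals, chrVII:80609-80638 on the minus strand, where the run goes on beyond the window, and chrV:223123-223152 on the plus strand.
EDC1: tttgaTTTTTTTTTTTTTTTTTTTTTTTTT
EDC2: tctcaTTTTTTTTTTTggggttttatttag

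EDC3, a scaffold that binds Dcp2 and Dhh1, was called in neither comparison of dhh1-delta. Its densities were 0.375 and 0.401 in WT, 0.436 and 0.471 in dhh1-delta, and up to 0.587 in the other deletion strains. The log2 fold change against WT was 0.22 (95% interval -0.02 to 0.47, adjusted p = 0.137). With size factors from protein-coding genes it was 0.26 and passed (adjusted p = 0.0103). Against the other 4 deletion strains it was -0.10 (SE 0.09, adjusted p = 0.337), and 0.12 with protein-coding factors. The ratio of EDC3 to DCP1 was 0.694 and 0.771 in dhh1-delta and 0.771 to 1.08 elsewhere, with adjusted p = 0.0727 by the exact permutation test.

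PAT1 and LSM1, whose proteins act in 1 complex, parted in dhh1-delta. PAT1 (YCR077C, chromosome III, 250238 to 252628) had densities of 0.7 and 0.928 in WT, 0.691 to 1.16 in the other deletion strains, and 1.61 and 1.48 in dhh1-delta. Both dhh1-delta libraries were above the rest, as for 8.43% of all features. The log2 fold change was 0.93 (SE 0.15, adjusted p = 0.000784), 1.91-fold. LSM1 (YJL124C, chromosome X, 187126 to 187644) had 0.964 and 1.03 in WT and 0.978 and 1.03 in dhh1-delta, within the range of the other strains. Its log2 fold change was 0.02 (95% interval -0.22 to 0.25, adjusted p = 0.917). The ratio of PAT1 to LSM1 was 0.726 and 0.904 in WT and 1.65 and 1.43 in dhh1-delta, 1.97 times that of the other 10 libraries (0.649 to 0.904; exact permutation test, two-sided, p = 0.0303, adjusted 0.0455). Without the first WT library the log2 difference was 0.96 in place of 0.98 (adjusted p = 0.0545).

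**Figure D2:**
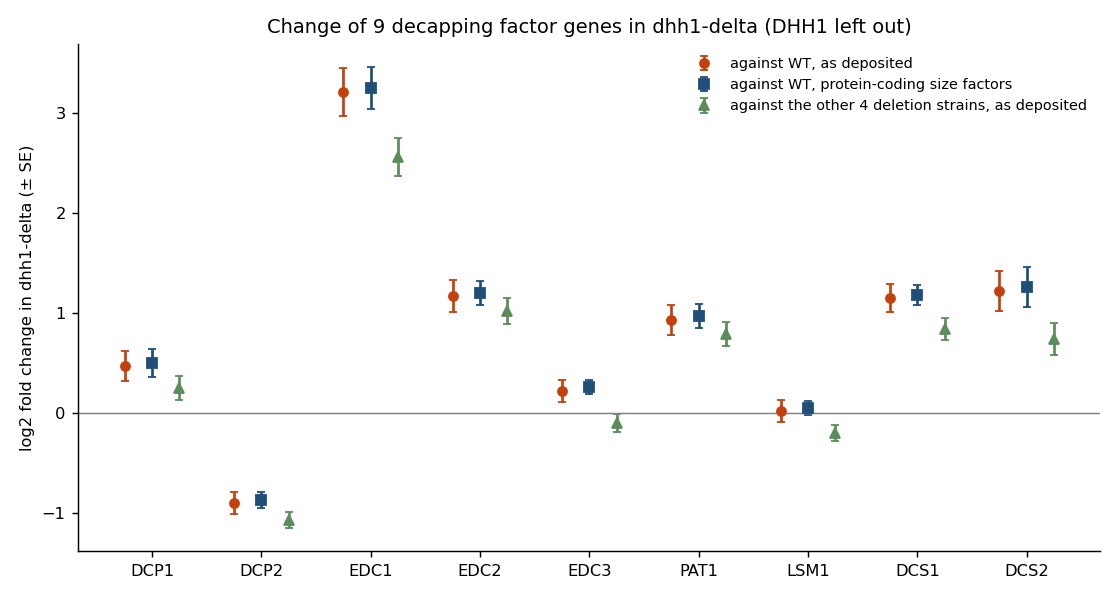
Log2 fold change (points, with SE bars) of 9 genes in dhh1-delta against WT as deposited, against WT with protein-coding size factors, and against the mean of the other 4 deletion strains. DCP2 is below 0 and EDC1 highest in all 3. LSM1 and EDC3 lie near 0, but EDC3 passed against WT with protein-coding size factors.

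The scavenger pair rose together. DCS1 (YLR270W, chromosome XII, 681186 to 682238) had densities of 0.272 and 0.362 in WT, 0.327 to 0.476 in the other deletion strains, and 0.691 and 0.709 in dhh1-delta. Its log2 fold change was 1.15 (SE 0.14, adjusted p = 0.000101). DCS2 (YOR173W, chromosome XV, 657264 to 658325) had 0.0474 and 0.0455 in WT, 0.0442 to 0.0902 in the other deletion strains, and 0.125 and 0.105 in dhh1-delta, on 220 and 182 reads. Its log2 fold change was 1.22 (SE 0.20, adjusted p = 0.000847). For both genes the dhh1-delta libraries were above all 10 others, as for 8.43% of all features. The ratio of DCS2 to DCS1 was 0.149 and 0.181 in dhh1-delta and 0.126 to 0.215 elsewhere, a log2 difference of -0.02 (exact permutation test, two-sided, p = 1). In the comparison with the other 4 deletion strains DCS2 passed in 9 of 10 fits without 1 library, and in the other, without the first dhh1-delta library, adjusted p was 0.0514.

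DCS2 was set beside 12 genes induced by stress, a list chosen with earlier results of these data known. In dhh1-delta 10 of them rose and 0 fell, where 13.7% of all features rose and 24.3% fell. Their median log2 fold change was 2.33 against -0.20 for all features. As deposited 6 were also called higher under the label ski2-delta and 10 under dbp1-delta, where 39.3% and 17.2% of all features were. Their medians there were 0.51 and 0.71, against 0.39 and 0.33 for all features. With protein-coding factors 1 was called higher under each label, where 27 and 28 of all 9497 features were (0.832% and 0.716% in either direction). In dhh1-delta 10 were then called higher, where 18.3% of all features were. In dhh1-delta HSP12, a small membrane stress protein, rose by 4.19, the glycogen phosphorylase GPH1 by 3.50 and the trehalose subunit TSL1 by 2.38. The catalase CTT1 (0.32) and the aldehyde dehydrogenase ALD3 (-0.11) did not pass. The part of a stress state in the rise of DCS2 was not tested. Before the start of DCS2 stand 2 matches to AGGGG, the stress response element bound by Msn2 and Msn4, at 160 and 148 bases, while the 500 bases before DCS1 hold none on either strand. Of 6002 promoters of that length, 34.1% hold the letters on either strand at least once and 8.13% at least 2 times. EDC2 also has 2, as CCCCT at 300 and 194 bases before its start, and EDC1 none. Of the other genes, DCP2, which fell, has 1 at 340 bases, LSM1, which was not called, has 1 at 185, and PAT1, which rose, has 1 at 210. DHH1, DCP1 and EDC3 have none. The 200 bases shown, from the RefSeq R64 genome, carry the matches in capitals, and DCS1 and EDC1 stand beside their paralogs with none. These are chrXII:680916-681115, chrXV:656994-657193 and chrV:222319-222518 on the plus strand and chrVII:81307-81506 on the minus strand.
DCS1: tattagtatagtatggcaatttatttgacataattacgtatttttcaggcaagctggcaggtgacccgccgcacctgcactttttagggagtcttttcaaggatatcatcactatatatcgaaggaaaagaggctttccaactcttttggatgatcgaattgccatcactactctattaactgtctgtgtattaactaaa
DCS2: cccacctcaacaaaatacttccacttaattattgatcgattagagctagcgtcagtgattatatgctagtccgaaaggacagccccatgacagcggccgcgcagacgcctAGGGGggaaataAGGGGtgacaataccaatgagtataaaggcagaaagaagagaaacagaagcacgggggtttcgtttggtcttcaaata
EDC1: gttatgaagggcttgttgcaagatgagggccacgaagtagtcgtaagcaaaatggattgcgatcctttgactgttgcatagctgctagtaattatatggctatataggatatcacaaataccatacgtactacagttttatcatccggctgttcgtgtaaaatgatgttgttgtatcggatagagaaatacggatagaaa
EDC2: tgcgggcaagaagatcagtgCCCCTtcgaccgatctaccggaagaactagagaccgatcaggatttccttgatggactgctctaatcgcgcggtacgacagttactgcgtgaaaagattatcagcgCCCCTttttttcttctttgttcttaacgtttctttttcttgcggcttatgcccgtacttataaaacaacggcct

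Against the mean of the other 4 deletion strains, 5 of the 10 genes were called higher and 2 lower. Of all features 56.7% were called there, 11% higher and 45.7% lower, and their median was -0.36. With protein-coding factors 6 were called higher and 2 lower, where 20.7% and 34.2% of all features were. As deposited DHH1 and DCP2 fell, EDC1, EDC2, PAT1, DCS1 and DCS2 rose, and DCP1, EDC3 and LSM1 were not called. LSM1 lay below 0 in all 10 fits without 1 library, at -0.24 to -0.16, but not with protein-coding or spike-in factors. The call gained with protein-coding factors was DCP1. PAT1 stood at 0.79 (SE 0.12), EDC2 at 1.02 (0.13), DCS1 at 0.84 (0.11) and DCS2 at 0.74 (0.16). The dhh1-delta libraries are the same in both comparisons, so this is not an independent repeat.

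**Figure D3:**
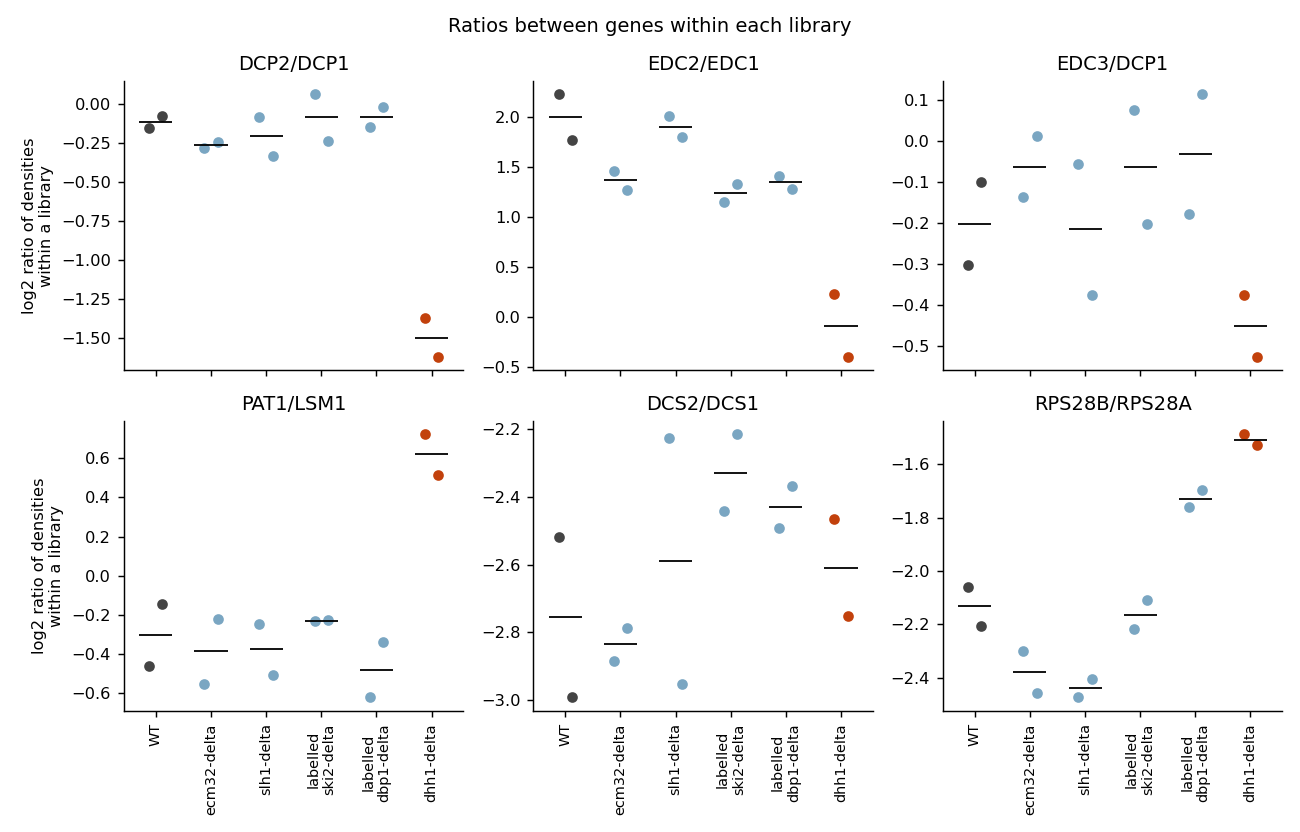
Log2 ratio of densities of 2 genes within each library (points), with strain means (bars). In dhh1-delta (red) DCP2/DCP1 and EDC2/EDC1 lie below and PAT1/LSM1 and RPS28B/RPS28A above the other 10 libraries, while DCS2/DCS1 overlaps them.

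Transcripts known to be decapped with help of Edc3 were looked at beside the factors. RPS28B, which encodes a ribosomal protein that directs decapping of its own mRNA through Edc3, had densities of 5.68 and 5.51 in WT and 6.45 and 6.64 in dhh1-delta (0.22, SE 0.11, adjusted p = 0.13). Its paralog RPS28A, which lacks that control, had 23.7 and 25.5 in WT and 18.1 and 19.2 in dhh1-delta, and fell (-0.40, SE 0.11, adjusted p = 0.0175). The ratio of RPS28B to RPS28A was 0.24 and 0.217 in WT, 0.18 to 0.308 over the 10 other libraries, and 0.356 and 0.346 in dhh1-delta. The log2 difference was 0.66 (exact permutation test, two-sided, p = 0.0303, adjusted 0.0455), and 0.67 without the first WT library (adjusted p = 0.0545). The highest of the others were both libraries labelled dbp1-delta, where RPS28B itself, at 6.69 and 7.87, was denser than in dhh1-delta. The coding sequences of the pair are nearly alike, and how their shared reads were counted is not given in the sources used here. YRA1, an mRNA export factor whose pre-mRNA is a target of Edc3, fell by 0.60 on the log2 scale (SE 0.12, adjusted p = 0.00209). The table does not separate its pre-mRNA from its mRNA.

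Of 23 other genes of decay from the 5′ end, 3 rose and 8 fell in dhh1-delta, where 13.7% of all features rose and 24.3% fell, so the list did not stand far from the background. Its median log2 fold change was -0.04 against -0.20 for all features, coding and non-coding together. XRN1, the exonuclease that follows decapping, had densities of 1.54 and 1.74 in WT and 1.11 and 1.06 in dhh1-delta, and fell by 0.60 (SE 0.12, adjusted p = 0.00254). PAB1, the poly(A)-binding protein, had a change of -0.91, EBS1, which is linked to nonsense-mediated decay, -0.85, and the nonsense decay factors NMD2 and NAM7 -0.82 and -0.75. TIF4631, a gene of the translation initiation factor eIF4G, fell by 0.65. NGR1, an RNA-binding protein that promotes decay, rose by 0.85, PUF3 by 0.61 and LSM2, a subunit of the ring of Lsm1, by 0.80. The other ring genes LSM3 to LSM7 did not pass, at 0.48, 0.27, -0.04, 0.00 and 0.25. Against the other 4 deletion strains 2 of the 23 rose and 12 fell, close to the 11% and 45.7% of all features.

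In ecm32-delta and slh1-delta 0 of the 10 genes were called by limma-trend or by voom, and 1 and 0 had an unadjusted p under 0.05. Of all features 0.0737% and 0.0105% were called there. That gene was EDC3 in ecm32-delta, named after its values were seen, with densities of 0.52 and 0.477 against 0.375 and 0.401 in WT (log2 fold change 0.36, SE 0.11, adjusted p = 0.485, limma-trend). In these strains the means ran from 85.1% of WT for EDC2 to 128% for EDC1 and EDC3 in ecm32-delta, and from 89.6% for PAT1 to 123% for DCS2 in slh1-delta.

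In the libraries labelled ski2-delta 8 of the 10 genes were called higher and 0 lower, where 39.3% of all features were called higher. In those labelled dbp1-delta 6 were called higher and 0 lower, where 17.2% of all features were. The median of the 10 genes was 0.47 and 0.41, close to the 0.39 and 0.33 of all features. DHH1 had densities of 1.74 and 1.71 in the first and 1.38 and 1.7 in the second, against 1.03 and 1.15 in WT, log2 fold changes of 0.66 and 0.49 (SE 0.12 for both). EDC1 stood at 0.99 and 0.96 (SE 0.24 for both) and DCS2 at 0.86 and 0.72 (SE 0.20 for both). With size factors from protein-coding genes 0 of the 10 genes were called in either, where 0.832% and 0.716% of all features were. DHH1 then stood at 0.23 and 0.15, EDC1 at 0.56 and 0.63 and DCS2 at 0.46 and 0.40. The calls made as deposited were lost in both sets without the first WT library, as were nearly all calls among all features. That fit keeps 1 WT library, so the loss says little about the 10 genes in particular. All features then had a median of 0.305 under the label ski2-delta and 0.247 under dbp1-delta. Both comparisons share the WT libraries with that of dhh1-delta.

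**Figure D4:**
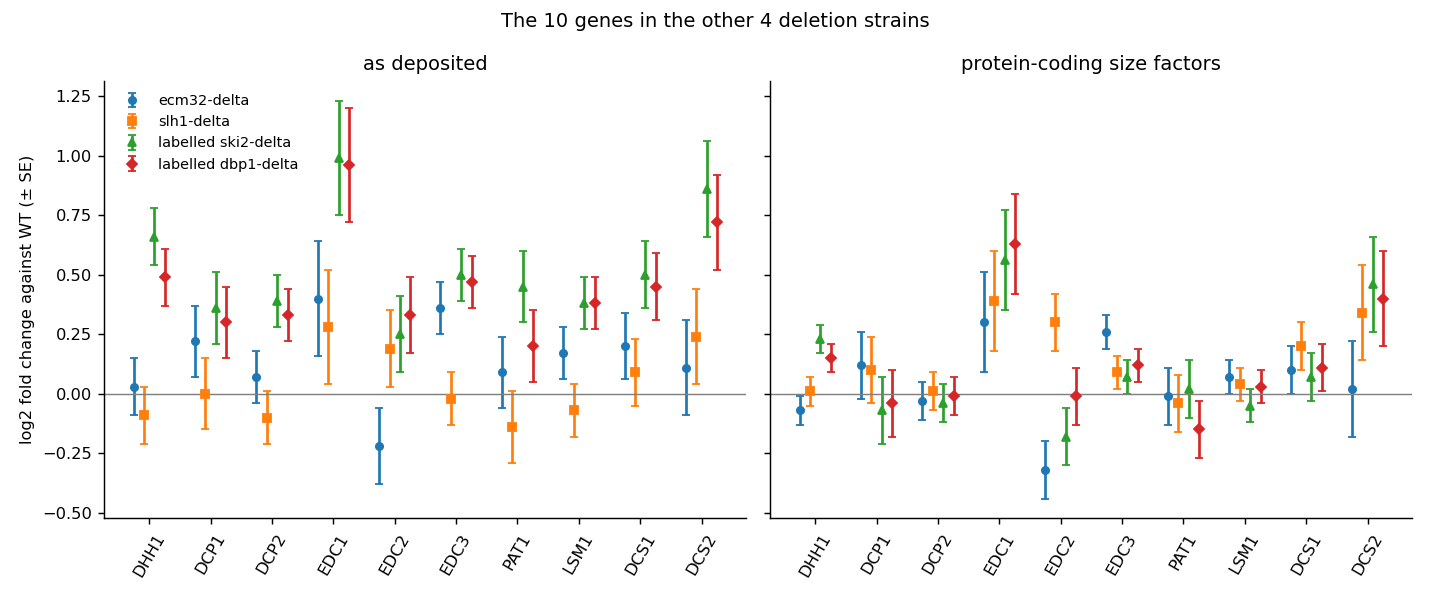
Log2 fold change against WT (points, with SE bars) of the 10 genes in the other 4 deletion strains, as deposited (left) and with protein-coding size factors (right). As deposited all 10 genes lie above 0 under the labels ski2-delta and dbp1-delta, which spike-in factors turn for 6 and 4 of the called genes; with protein-coding factors none of the 10 is called in any of the 4 strains.

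For genes that passed in both comparisons of dhh1-delta, the protein-coding genes of most similar pattern were sought as Pearson's r of log2 density over the 12 libraries, among 5650 genes. The nearest to DCP2 were SLD3 (0.994) and YKU70 (0.993), to EDC1 BDH1 (0.989) and RCN2 (0.988), and to EDC2 TES1 (0.974) and SDS24 (0.973). The nearest to PAT1 were CHS2 (0.983) and CCC1 (0.979), and to DCS1 AYR1 (0.992) and ATP2 (0.989). DCS2 was nearest to MSN4 (0.958), the gene of the stress factor named above, and VHS1 (0.955). All points share their libraries and depth, and the 2 dhh1-delta libraries weigh most in each r.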

How the data were processed

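Per the submitters' processing notes, the tools were featureCounts 2.0.0, HISAT2 2.2.0, DESeq2 and Trim Galore and the build R64, named without role or order. Libraries were stranded (TruSeq), per the labels' protocols; whether counting used strand is not given in the sources used here. The authors deposited signal values, normalized densities. A step of 1 read per library and a length per feature gave whole reads (within 0.002) for all 10767 features with reads, partly because the length was searched for. The steps match size factors over 76 snoRNAs within 0.558%. Log2(density + 0.005076, the 10th percentile of values above 0) was fitted with limma-trend (limma 3.58.1, R 4.3.3) over 12 libraries, for 9497 features with mean density above that value, without spike-ins (6 residual and 5.75 prior degrees of freedom). P-values were adjusted over all features (Benjamini-Hochberg, threshold 0.05). Fold changes are on that scale and understate changes of low genes. Ratios used exact permutation tests. The chi-square per degree of freedom between replicates was 6.23 to 10.8, above counting noise. The limma p-values rest on the spread between the 2 libraries of a strain, pooled over the 6 strains. Differences among the other 4 deletion strains do not enter the error of the comparison with their mean. The fit was also run on simulated reads whose library factors were known, so that run says nothing about the choice of factors. The 10 genes, the lists and the naming rule (all 10, fixed lists, called pathway genes by size) were chosen with earlier results of these data known. The promoters of DCS1 and DCS2 were added after their values were seen.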

Additional observations from a re-analysis of the deposited data

How the results depend on the processing

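The calls of dhh1-delta against WT were 8 of 10 as deposited and 3 with spike-in factors, which left DHH1 and DCP2 lower and EDC1 higher, while the share of all features called went from 37.9% to 16.6%. With the first WT library also left out the count was 8 again, but DCP2 was lost (-0.48, adjusted p = 0.0739) and EDC3 gained, with 26.9% of all features called. In the libraries labelled ski2-delta 40% of all features were called as deposited. The count of 8 genes became 0 with protein-coding factors, with spike-in factors, and with only these groups in the fit. Of all features 0.832%, 1.21% and 0.0737% were then called. In those labelled dbp1-delta 17.6% of all features were called as deposited. The count of 6 genes became 0 with protein-coding and with spike-in factors (0.716% and 0.695% of all features). With only these groups it was 1 (4.76%). With deposited factors the calls of both sets were lost without the first WT library, as were nearly all calls among all features. With spike-in factors there was no call of the 10 genes to lose. The calls made as deposited also depended on which other library was left out. The cause was not tested.

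With spike-in factors the log2 fold change turned for DHH1 (-0.099), DCP2 (-0.37), EDC3 (-0.26), PAT1 (-0.31), LSM1 (-0.38) and DCS1 (-0.25) in the libraries labelled ski2-delta, and for DHH1 (-0.052), EDC3 (-0.075), LSM1 (-0.17) and DCS1 (-0.091) in those labelled dbp1-delta. With protein-coding factors DCP2 (-0.042) and LSM1 (-0.053) turned in the former. In dhh1-delta against WT, LSM1 turned with spike-in factors (-0.21), LSM6 likewise (-0.22), and without 1 library LSM1 ran from -0.029 to 0.06 and LSM6 from -0.025 to 0.03, with -0.018 between. When spike-in factors were used and the first WT library left out, LSM5 was 0.38 and STE7 0.23, and STE7 was 0.02 without the second WT library. Against the other 4 strains EDC3 was 0.12 and 0.15, and LSM1 0.028 and 0.058, with protein-coding and spike-in factors.

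Leaving out 1 dhh1-delta library gave ratio differences of -1.48 to -1.22 for DCP2/DCP1, -1.98 to -1.35 for EDC2/EDC1, 0.87 to 1.08 for PAT1/LSM1, 0.64 to 0.68 for RPS28B/RPS28A and -0.16 to 0.12 for DCS2/DCS1, and 1 library cannot pass the test. With the pseudocount EDC3/DCP1 was -0.33 and passed (adjusted p = 0.0364). Replicate numbers do not pair the samples (correlations of deviations -0.0778 to 0.0719 over 15 pairs of strains, 0 above 0.1); with the number as a replicate block the counts of calls were 0, 0, 8, 6, 8 and 7, as without it, in the order ecm32-delta, slh1-delta, ski2-delta, dbp1-delta and dhh1-delta against WT, then dhh1-delta against the other 4. Precision is limited by 2 libraries a strain and, for DCS2 and EDC1 in WT, by 116 and 170 reads.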
